A study of Mus musculus with 5 samples.

Results

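Gamma cells, the islet endocrine cells that make pancreatic polypeptide, were described in single-cell libraries of isolated and dissociated mouse islets. A cell was counted as a gamma cell when Ppy, which encodes pancreatic polypeptide, took at least 10% of its UMIs (unique molecular identifiers, 1 per captured transcript) and exceeded each of Ins1+Ins2, Gcg and Sst. By this rule 88 of 4687 cells were gamma cells, so they were chosen by their Ppy, insulin, Gcg and Sst shares. The 5 libraries came from C57BL/6 mice and were made with inDrop, a droplet method that barcodes the transcripts of each cell. 1 library came from non-pregnant, 2 from pregnant and 2 from postpartum islets. No allele, transgene or agent was named in the labels, and the day of pregnancy or after birth, the age and the number of animals per library are not stated in the labels. The replicate libraries may therefore share animals, and the tests speak only for these libraries.

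Pancreatic polypeptide belongs to the neuropeptide Y family, together with neuropeptide Y itself and peptide YY. It is released into the blood after meals, largely under vagal control, and acts mainly through the Y4 receptor to slow exocrine secretion and reduce food intake. Gamma cells are the scarce endocrine cells of the islet beside the insulin-making beta cells, glucagon-making alpha cells and somatostatin-making delta cells, and they are most frequent in the part of the pancreas that derives from the ventral bud. Pregnancy remodels islets through prolactin and placental lactogens, which act on beta cells through the prolactin receptor.

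The genes for the gamma cell hormones lie next to each other. In the RefSeq annotation of GRCm38.p6, Ppy spans chr11:102099931-102101319 and Pyy, which encodes peptide YY, spans chr11:102106676-102107832. Both are on the minus strand, 5356 bases apart, with 0 genes annotated between them. The 250 bases upstream of each gene start are shown because the same cells carried both transcripts. They are written 5′ to 3′ on the gene's strand, with the TATAA run nearest the start in capitals.
Ppy, chr11:102101320-102101569 (-): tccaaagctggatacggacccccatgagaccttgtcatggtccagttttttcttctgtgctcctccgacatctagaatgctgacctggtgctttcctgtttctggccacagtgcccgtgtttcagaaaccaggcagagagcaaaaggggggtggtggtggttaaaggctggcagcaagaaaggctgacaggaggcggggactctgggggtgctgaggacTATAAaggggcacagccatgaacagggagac
Pyy, chr11:102107833-102108082 (-): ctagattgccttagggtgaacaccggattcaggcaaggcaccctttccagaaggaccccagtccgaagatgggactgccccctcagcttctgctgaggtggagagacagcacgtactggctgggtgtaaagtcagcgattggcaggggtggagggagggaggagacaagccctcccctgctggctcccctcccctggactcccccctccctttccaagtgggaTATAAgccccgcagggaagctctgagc
The run starts 31 bases before the Ppy start and 27 bases before the Pyy start. Among 32851 RefSeq upstream windows of the same length, 4.93% held TATAA on the gene strand in the last 50 bases, and 22.8% held it on either strand anywhere in the 250 bases. The match is a description of letters and not of a bound site.

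The libraries differed in depth. The median was 2553 UMIs per cell in the non-pregnant library, 539 in pregnant 1, 89 in pregnant 2, 236 in postpartum 1 and 572.5 in postpartum 2. Gamma cells had medians of 2687, 634, 77, 227 and 741 UMIs in the same order. After the hormone transcripts were set aside, the gamma cells held 45672, 6187, 6, 1070 and 4479 UMIs, and depth limits every comparison between libraries. The non-pregnant file also carried 40930 features against 6695 in the others. Cells were numbered within each file, so shared barcodes could not be counted, and 0 cells had identical counts in 2 libraries.

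Gamma cells made up a small share of every library. They were 31 of 847 cells in the non-pregnant library (3.66%, 95% exact Clopper-Pearson interval 2.50 to 5.16). Pregnant 1 held 25 of 1993 (1.25%, 0.813 to 1.85) and pregnant 2 held 1 of 164 (0.610%, 0.0154 to 3.35). Postpartum 1 held 13 of 557 (2.33%, 1.25 to 3.96) and postpartum 2 held 18 of 1126 (1.60%, 0.950 to 2.51). The non-pregnant interval lay above that of pregnant 1 and overlapped those of the other 3 libraries, and the intervals of the pregnant and postpartum libraries overlapped each other. Intervals here cover counting error only. With 1 library in one group and 2 in each of the others, no exact permutation test of libraries can reach 0.05, and a share measured on dissociated cells cannot separate fewer cells from cells lost in preparation.

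**Figure D1:**
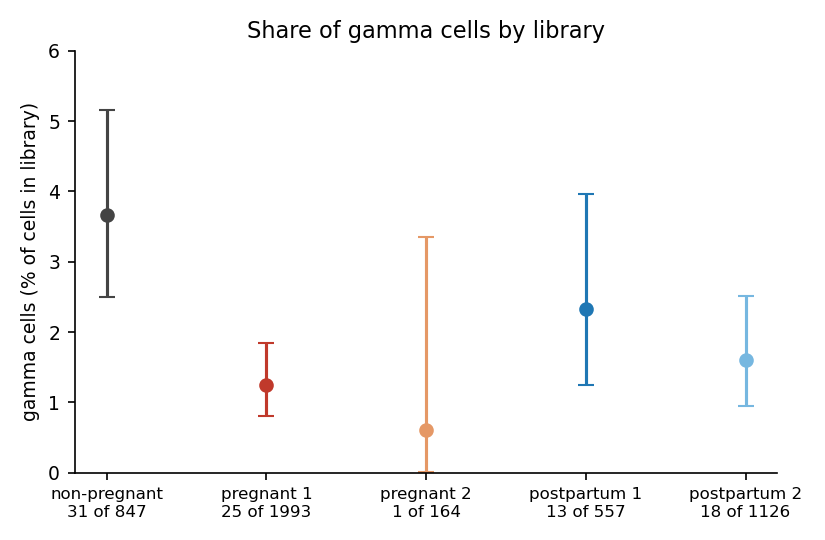
Gamma cells as a percentage of all cells in each library. Points are shares, bars are 95% Clopper-Pearson intervals, and the counts stand under each name. The non-pregnant library is highest at 3.66% and the other 4 lie between 0.610% and 2.33%.

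Ppy, which chose the cells, is given as a description only. In the non-pregnant library the Ppy share of a gamma cell ran from 10.3% to 39.7% with a median of 27.1%. The medians were 19.0% in pregnant 1, 16.6% in postpartum 1 and 26.5% in postpartum 2, and the highest cells there reached 30.3%, 28.3% and 36.8%. The single pregnant 2 cell stood at 32.5%. Over all libraries 55 of 88 gamma cells had at least 20% Ppy. Just inside the limit lay 7 cells with 10.1% to 10.9% Ppy, and just outside it 3 cells with Ppy as the leading hormone at 8.70% to 9.60%. A further 20 cells had at least 10% Ppy but more of another hormone.

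Peptide YY was the second hormone of the gamma cells. Every one of the 88 cells carried at least 1 Pyy UMI. In the non-pregnant library Pyy took from 5.11% to 24.2% of a gamma cell's UMIs with a median of 10.99%. The medians were 10.7% in pregnant 1, 15.4% in postpartum 1 and 12.9% in postpartum 2. Ppy and Pyy together took a median of 38.9%, 29.7%, 38.6% and 40.1% of the cell in those 4 libraries. Pyy exceeded Ppy in 9 of 88 cells, of which 4 were among the 13 of postpartum 1. Within a library the shares of the 2 genes showed no common course: Spearman's rho across cells of the same library was -0.05 (31 cells), 0.09 (25 cells), -0.42 (13 cells) and 0.22 (18 cells), for values that share each cell's total.

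Pyy was also compared between classes at 1 depth. After each cell was thinned to 200 UMIs, all 31, 25, 9 and 18 gamma cells of the 4 larger samples still had a Pyy UMI, with 4 shallower cells of postpartum 1 left out. In beta cells, at the same 200 UMIs, the share was 25.95% in the non-pregnant library, 45.8% in pregnant 1, 7.48% in postpartum 1 and 21.1% in postpartum 2. Alpha cells lay between, at 90.5%, 88.6%, 55.2% and 76.3%. The 34 non-pregnant delta cells all had a Pyy UMI at this depth. Alpha, delta and gamma cells thus all carried Pyy UMIs at shares above those of beta cells, and the part of free RNA in the alpha cell share was not tested.

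Other islet hormones were low in most gamma cells. Insulin, glucagon or somatostatin transcripts reached 5% in 15 of 88 cells, of which 6 did so for Ins1 and Ins2, 7 for Gcg and 3 for Sst. A lower limit of 1% was passed by 37 cells, and 19 of these were among the 25 gamma cells of pregnant 1. The median insulin share of gamma cells was 0.576% in the non-pregnant library, 1.39% in pregnant 1, 0% in postpartum 1 and 0.566% in postpartum 2. No doublet caller was run, and the part of mixed droplets or free RNA in these shares was not tested.

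**Figure D2:**
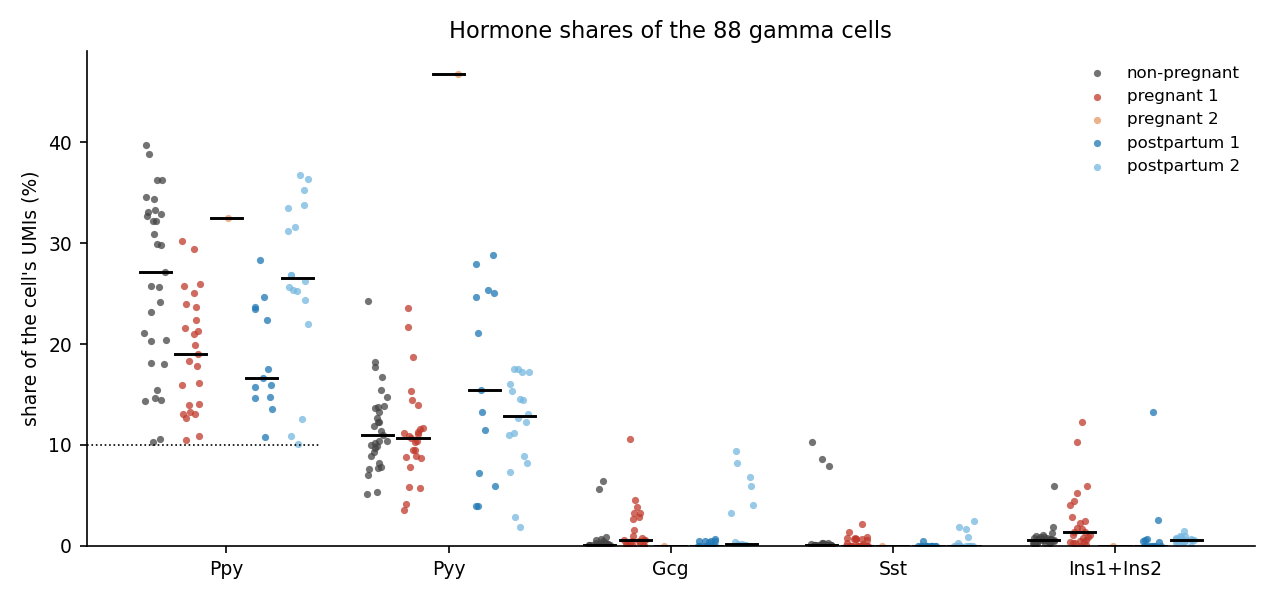
Share of each gamma cell's UMIs, in percent, taken by 5 hormone readouts. Each point is 1 of the 88 cells, coloured by library, black bars are medians, and the dotted line marks the 10% limit on Ppy. All cells lie at or above 1.89% for Pyy, while most lie under 1% for Gcg, Sst and Ins1+Ins2.

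The remaining markers of gamma cells were detected in a minority of cells outside the deepest library. Tspan8, a tetraspanin of the cell surface, had a UMI in 18 of 31 non-pregnant gamma cells (58.1%, median depth 2687 UMIs), 7 of 25 in pregnant 1, 1 of 13 in postpartum 1 and 1 of 18 in postpartum 2. The share was 3.82% of non-pregnant beta cells (median depth 2799 UMIs), 4.76% of alpha cells and 41.2% of delta cells. At 200 UMIs per cell it was down to 1 of 31 gamma cells, a level at which classes cannot be compared. Folr1, a folate receptor, had a UMI in 11 of 31 non-pregnant gamma cells (35.5%), against 6.87% of beta, 2.38% of alpha and 20.6% of delta cells. In gamma cells of the other libraries Folr1 rested on 1 UMI in pregnant 1, 0 in postpartum 1 and 2 in postpartum 2. In the non-pregnant library the interval of the Tspan8 share was 24.6% to 59.3% in delta cells and overlapped that of gamma cells, 39.1% to 75.5%. In postpartum 2 Tspan8 was in 2 of 8 delta cells. The name gamma cells thus rests on Ppy, by rule.

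Levels of other genes are given as CPM, the UMIs of a gene per 1000000 non-hormone UMIs of the cell, averaged over the cells of a class in a library. Pyy and Iapp are on the same scale without being in its denominator. Gamma cells were compared with alpha cells (Gcg leading at 10% or more, 84, 132, 120 and 177 cells) and beta cells (Ins1 and Ins2 leading at 30% or more, 131, 804, 375 and 830 cells) of the same 4 libraries. Pregnant 2 could not enter with its 1 gamma cell, so 87 gamma cells were used. The test was limma on log2(CPM + 100) with the library as a block, with Benjamini-Hochberg adjustment over all genes tested and a two-sided limit of 0.05. edgeR's quasi-likelihood test on the UMIs is given beside it. In both comparisons limma took its spread wholly from the trend over genes of like level (infinite prior degrees of freedom). Its p-values therefore do not measure the SD between libraries that is printed for a gene. Gamma cells were the class with fewer UMIs in total. The median difference of all genes was -0.13 against alpha cells and -0.23 against beta cells, and 0.05 and -0.04 when UMIs were pooled and both classes thinned to equal depth. Beside a lower gene, its UMIs in gamma cells are given with the UMIs expected at the rates of the other class in the same libraries. At equal depth, an alternative added after seeing the data, limma called 2 genes against alpha cells (Pyy and Ttr) and 1 against beta cells (Pyy). Rnase4, Slc30a8 and Gpx3 against alpha cells, and Tspan8, Kcnk3, Etv1, Alcam, Malat1, Iapp, G6pc2, Prlr, Ero1lb, Ucn3, Prss53, Pcsk1, Papss2, Chga and Hadh against beta cells, kept their direction there and were not called.

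Against alpha cells, gamma cells had more Pyy and less Ttr, Rnase4, Slc30a8 and Gpx3. limma called 6 of 2300 genes (0.261%), 1 higher (0.0435%) and 5 lower (0.217%), and edgeR called 9, among them all 6. Pyy stood at 254759 CPM in non-pregnant, 320528 in pregnant 1, 492001 in postpartum 1 and 485373 in postpartum 2 gamma cells, and at 50386, 82902, 41966 and 63047 CPM in alpha cells. Every gamma value lay above every alpha value, and the log2 difference was 2.69 ± 0.70 (SD, n = 4 libraries, edgeR adjusted p = 0.00126).

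Ttr, which encodes the carrier protein transthyretin and is abundant in alpha cells, was called lower by both tests. It stood at 1106, 2058, 5822 and 4939 CPM in gamma cells and at 21275, 20928, 65705 and 65384 CPM in alpha cells. The log2 difference was -3.65 ± 0.37 (SD, n = 4, limma adjusted p = 6.59e-41, edgeR 3.78e-17). Gamma cells held 93 Ttr UMIs, where alpha cell rates in the same libraries give 1451. Every gamma value lay below every alpha value. Of the 7 alpha cell markers tested besides Gcg, 2 were called lower, Ttr among them, and 0 higher, with a median of -2.39 on the log2 scale against -0.13 for all 2300 genes.

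Irx1, an alpha cell transcription factor, had 0 UMIs in gamma cells against 22.5 expected, so it was at least 7.49-fold lower (3 counts over the group, with the UMIs expected at alpha cell rates). limma did not call Irx1 (adjusted p = 0.0825) and edgeR did (0.00529).

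Rnase4, Slc30a8 and Gpx3 were also called lower. Rnase4, a secreted ribonuclease, had 13 UMIs in gamma cells against 127.3 expected (ratio 0.102, exact 95% Poisson interval 0.0544 to 0.175, log2 difference -3.03, limma adjusted p = 0.00753). Slc30a8, the zinc transporter of insulin and glucagon granules, had 3 against 24.3 (ratio 0.123, 0.0254 to 0.360, log2 difference -2.84, limma adjusted p = 0.0174). Gpx3, a secreted glutathione peroxidase, had 109 against 336.1 (log2 difference -2.14, limma adjusted p = 0.0351). Each was lower in 4 of 4 libraries. For Slc30a8 that agreement rests on its 3 UMIs, too few for a detected value in every library, so it is a weak check of direction.

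Tspan8 and Scg2 were higher in 4 of 4 libraries and missed limma's limit. Tspan8 stood at 1008, 1820, 587 and 519 CPM in gamma and 33, 157, 46 and 75 CPM in alpha cells, a log2 difference of 2.51 ± 0.58 (SD, n = 4, limma adjusted p = 0.0829, edgeR 0.0264). The postpartum values of Tspan8 rest on 1 UMI each. Scg2, the granule protein secretogranin II, stood at 4280, 12254, 5902 and 4957 CPM against 1550, 2509, 1751 and 2182 (limma adjusted p = 0.0584, edgeR 0.907). Folr1 was not called by either test (limma adjusted p = 0.933, edgeR 0.670). The count of calls against alpha cells fell to 2 without the non-pregnant library and to 2 without pregnant 1, and rose to 10 without postpartum 1. Pyy and Ttr were called in each of the 4 fits with 1 library left out, and Rnase4, Slc30a8 and Gpx3 each lost the call in at least 1.

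Against beta cells the gamma cells carried a wider set of differences. limma called 34 of 2389 genes (1.42%), 7 higher (0.293%) and 27 lower (1.13%), and edgeR called 52, of which 28 were shared (5 higher and 23 lower). Of the 34 called, 33 went the same way in all 4 libraries. The exception was Mafa, which was at 0 CPM in both classes of the non-pregnant library. Pyy, Tspan8, Kcnk3 and Etv1 were among those called higher by both tests.

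Pyy was at 4366, 15163, 3007 and 9726 CPM in beta cells, a log2 difference of 5.79 ± 1.19 (SD, n = 4, edgeR adjusted p = 2.06e-10). Tspan8 differed by 2.83 ± 0.54 on the log2 scale (limma adjusted p = 0.00633, edgeR 2.31e-04), with 62 UMIs where 2.03 were expected.

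Kcnk3, a background potassium channel, stood at 515, 672, 2411 and 118 CPM in gamma cells and 4, 51, 0 and 23 CPM in beta cells (log2 difference 2.60, limma adjusted p = 0.0151, edgeR 1.82e-04). Gamma cells held 29 Kcnk3 UMIs where 0.560 were expected. On pooled UMIs, 1 UMI is 935 CPM in postpartum 1 and 223 CPM in postpartum 2, so the postpartum values rest on few UMIs. Etv1, an ETS family transcription factor, stood at 824, 691, 855 and 561 CPM, against 71, 94, 27 and 53 CPM in beta cells (log2 difference 2.37 ± 0.40, SD, n = 4, limma adjusted p = 0.0416, edgeR 0.00285). Of its 50 UMIs in gamma cells, 39 were in the non-pregnant library, so the values of the other libraries rest on few UMIs. In alpha cells Etv1 was at 770, 933, 1116 and 770 CPM and Kcnk3 at 815, 922, 473 and 297 CPM. Alcam, an adhesion molecule, and Malat1, a nuclear noncoding RNA, were called by limma alone, with edgeR adjusted p of 0.176 and 0.958.

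Beta cell markers were lower in gamma cells. Of the 9 beta cell markers tested besides insulin, 6 were called lower, 0 higher, and 9 of 9 lay below 0, with a median of -2.43 on the log2 scale (-2.84 with 2 undetected genes at their bound) against -0.23 for all 2389 genes. Iapp, the beta cell peptide amylin, stood at 8202, 21369, 6981 and 2495 CPM in gamma cells and 130336, 111550, 233196 and 108337 CPM in beta cells (log2 difference -4.19 ± 1.35, SD, n = 4, edgeR adjusted p = 1.22e-09). G6pc2, the islet glucose-6-phosphatase subunit, had 3 UMIs against 119.6 expected (ratio 0.0251, 0.00517 to 0.0733, log2 difference -4.43, limma adjusted p = 9.59e-08). Ucn3, a peptide of mature beta cells, had 2 against 80.3 (ratio 0.0249, 0.00302 to 0.0900). Slc2a2, the GLUT2 glucose transporter, had 0 against 24.9 and was at least 8.29-fold lower.

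Prlr, the prolactin receptor, was lower in gamma than in beta cells. Gamma cells held 4 Prlr UMIs where 106.0 were expected at beta cell rates, a ratio of 0.0377 (0.0103 to 0.0966). By library Prlr was at 60, 457, 0 and 0 CPM in gamma cells and at 1291, 1608, 6630 and 7019 CPM in beta cells. The log2 difference was -4.24 ± 2.25 (SD, n = 4, limma adjusted p = 1.71e-07, edgeR 4.05e-08), and it was smallest in pregnant 1, where 2 UMIs made the gamma value. On UMIs pooled over cells, a count of 0 allows up to 2804 CPM in postpartum 1 and 670 CPM in postpartum 2. Both lie under the beta cell levels there, which are averaged over cells. Of 10 genes of the lactogen response list that were tested, limma called Prlr alone and edgeR called 2, with Socs2, a cytokine signalling inhibitor, as the second (0 UMIs in gamma cells, edgeR adjusted p = 0.00537, limma 0.0573). Of the 10, 7 lay below 0, where 1469 of all 2389 genes did. Socs3, of the same list, lay the other way, with 28 UMIs against 4.56 expected (ratio 6.14, 4.08 to 8.88). Neither test called a gene of the list higher. The summed level of that list's 13 genes was 1590, 3217, 2076 and 2180 CPM in gamma cells and 2968, 3178, 12312 and 14531 CPM in beta cells.

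Genes of hormone processing and protein folding were compared next. Pcsk1, the prohormone convertase that cuts proinsulin, had 4 UMIs against 48.0 expected (log2 difference -3.45 ± 0.90, SD, n = 4, limma adjusted p = 1.73e-04, edgeR 1.20e-04). Pcsk2, the convertase of glucagon and of beta cells, was 8580, 18889, 12126 and 23752 CPM in gamma cells and was not called. Chga, the granule protein chromogranin A, stood at 3359, 2905, 7175 and 6069 CPM in gamma and 9842, 8645, 17269 and 17552 CPM in beta cells, with a similar difference in every library (log2 difference -1.46 ± 0.14, SD, n = 4, limma adjusted p = 2.51e-04). Of 29 granule and processing genes tested, limma called 3 lower (Chga, Iapp and Pcsk1) and 0 higher, where it called 1.13% of all genes lower. edgeR called 7 lower, adding Chgb, Scg3, Syt4 and Nucb2. Among 22 genes of folding in the endoplasmic reticulum, 21 lay below 0, where 1469 of all 2389 genes did. The median of the 22 was -0.89, against -0.23 for all genes. limma called 1 of them lower, where it called 1.13% of all genes lower. This was the oxidase Ero1lb (4 UMIs against 74.5 expected, log2 difference -3.83, limma adjusted p = 1.40e-05).

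The remaining genes called lower by the smallest p were Prss53, Papss2 and Hadh. Prss53, a serine protease, had 0 UMIs in 4 of 4 gamma columns against 82.3 expected and was at least 27.4-fold lower. Papss2, which makes the sulfate donor PAPS, had 1 against 45.7 (ratio 0.0219, 5.55e-04 to 0.122). Hadh, a mitochondrial fatty acid oxidation enzyme, had 14 against 74.8 (limma adjusted p = 6.55e-04, edgeR 0.00134). Of 57 oxidative phosphorylation genes tested, limma called 2 lower, Atp5g1 and Cox8a, where it called 1.13% of all genes lower. The median of the 57 was -0.80, against -0.23 for all 2389 genes. edgeR called neither of the 2 (adjusted p = 0.0772 and 0.0699) and called 1 other gene of the list lower. The count of calls against beta cells was 9 without the non-pregnant library, 13 without pregnant 1, 11 without postpartum 2 and 41 without postpartum 1. Pyy, Iapp, G6pc2, Prlr, Ero1lb, Ucn3 and Pcsk1 were called in each of the 4 fits with 1 library left out. Tspan8 and Etv1 were called in 1 of these 4 fits, the one without postpartum 1, and Kcnk3 in 1, the one without postpartum 2.

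**Figure D3:**
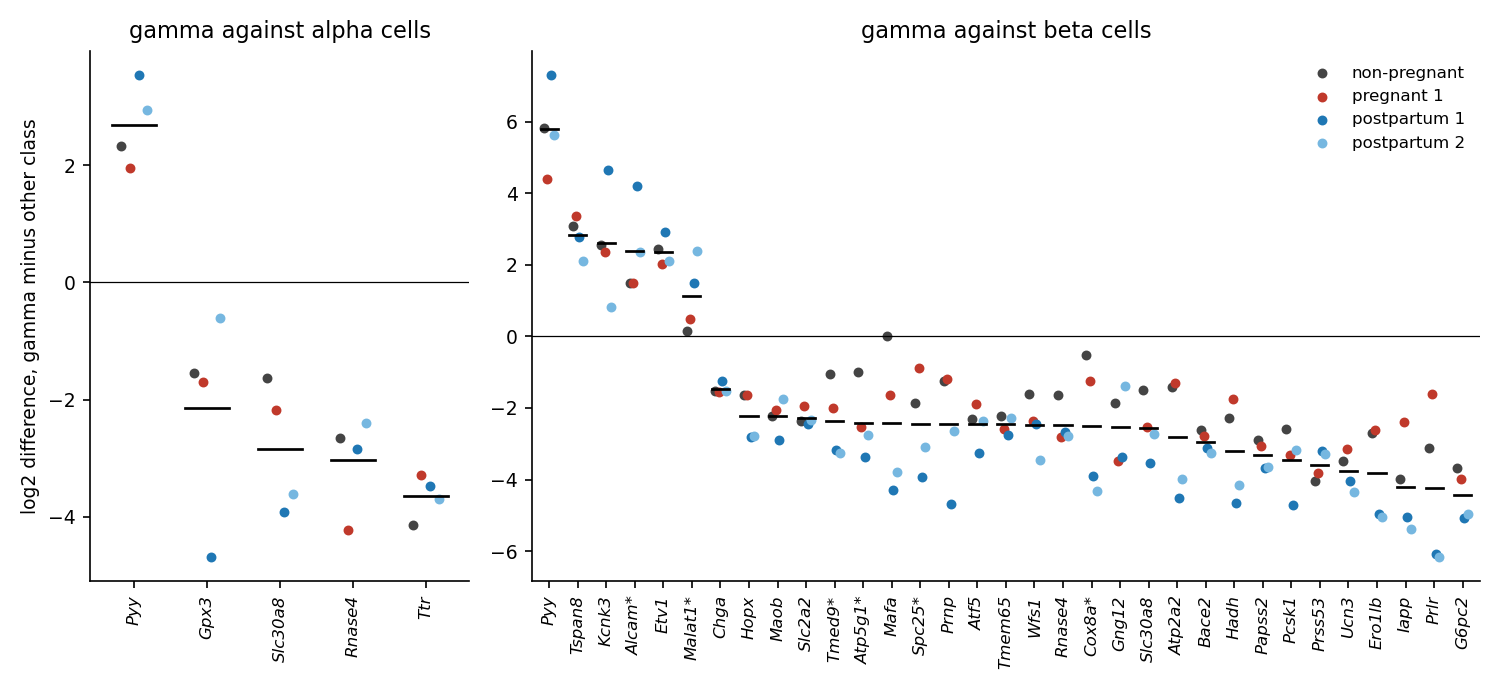
Log2 difference in CPM + 100 between gamma and alpha cells (left) and gamma and beta cells (right) for genes limma called. Points are the 4 libraries, bars are fitted differences, and a star marks a gene that edgeR did not call. Pyy leads both panels, and the lower genes of the right panel end with Prlr and G6pc2.

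Lists of general cell functions were read against the share of all genes called, 0.261% against alpha and 1.42% against beta cells. At those shares a list of this size can give 0 calls without standing apart. Of 23 immediate early and stress genes tested, 0 were called against alpha and 0 against beta cells, with medians of -0.16 and 0.28. Of 58 ribosomal protein genes, 0 were called in either comparison, with medians of -0.60 and -0.19. The 16 and 15 islet transcription factors tested gave 1 call against alpha cells, lower, and 2 against beta cells (Etv1, higher, and Mafa, lower). Meis2 and Pax6, factors of several endocrine lineages, were at 675 and 723 CPM in non-pregnant gamma cells and were not called. Of the antigen presentation genes H2-K1 and B2m, at 1751 and 2314 CPM in non-pregnant gamma cells, neither was called.

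Endothelial, macrophage, mesenchymal and acinar markers were sparse. Endothelial markers summed to 37 CPM in non-pregnant gamma cells and to 0 in the other 3 libraries, macrophage markers to between 0 and 139 CPM, and mesenchymal markers to 77 CPM in the non-pregnant and 0 in the others. Acinar markers gave 16, 2, 0 and 2 UMIs in the order non-pregnant, pregnant 1, postpartum 1, postpartum 2. The 4 duct genes summed to 2797, 1840, 762 and 3906 CPM in gamma cells (130, 12, 1 and 17 UMIs), 2582, 1483, 1368 and 1780 CPM in alpha and 1534, 1673, 511 and 1307 CPM in beta cells. Of these, Spp1, which encodes osteopontin, was at 2392, 1544, 762 and 408 CPM in gamma and 2103, 931, 0 and 21 CPM in alpha cells. Krt8, a keratin, was at 111, 0, 0 and 2328 CPM in gamma cells, so the postpartum 2 sum was mostly Krt8 (10 UMIs). The part of other cells' RNA in these levels was not tested. Beta cell markers summed to 8664, 22145, 6981 and 2666 CPM, most of it Iapp, against 135531, 119025, 242293 and 116423 CPM in beta cells.

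Delta cells shared Pyy and Tspan8 with gamma cells. The comparison could not be fitted, since only the non-pregnant library held 10 or more delta cells (34 of 847). There, Pyy was at 254759 CPM in gamma and 138910 CPM in delta cells, and Tspan8 at 1008 and 540 CPM. Meis2 was at 675 and 1117 CPM. Iapp was at 8202 and 66236 CPM, and the delta cell markers Rbp4 and Hhex were at 519 and 15 CPM in gamma against 5799 and 283 CPM in delta cells. The 8 delta cells of postpartum 2 gave Pyy at 59489 CPM against 485373 in gamma cells and Iapp at 15391 against 2495 CPM. Tspan8 lay the other way there, at 849 CPM in delta cells (2 UMIs) and 519 CPM in gamma cells (1 UMI). Which class holds more Tspan8 was therefore not settled by these libraries.

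**Figure D4:**
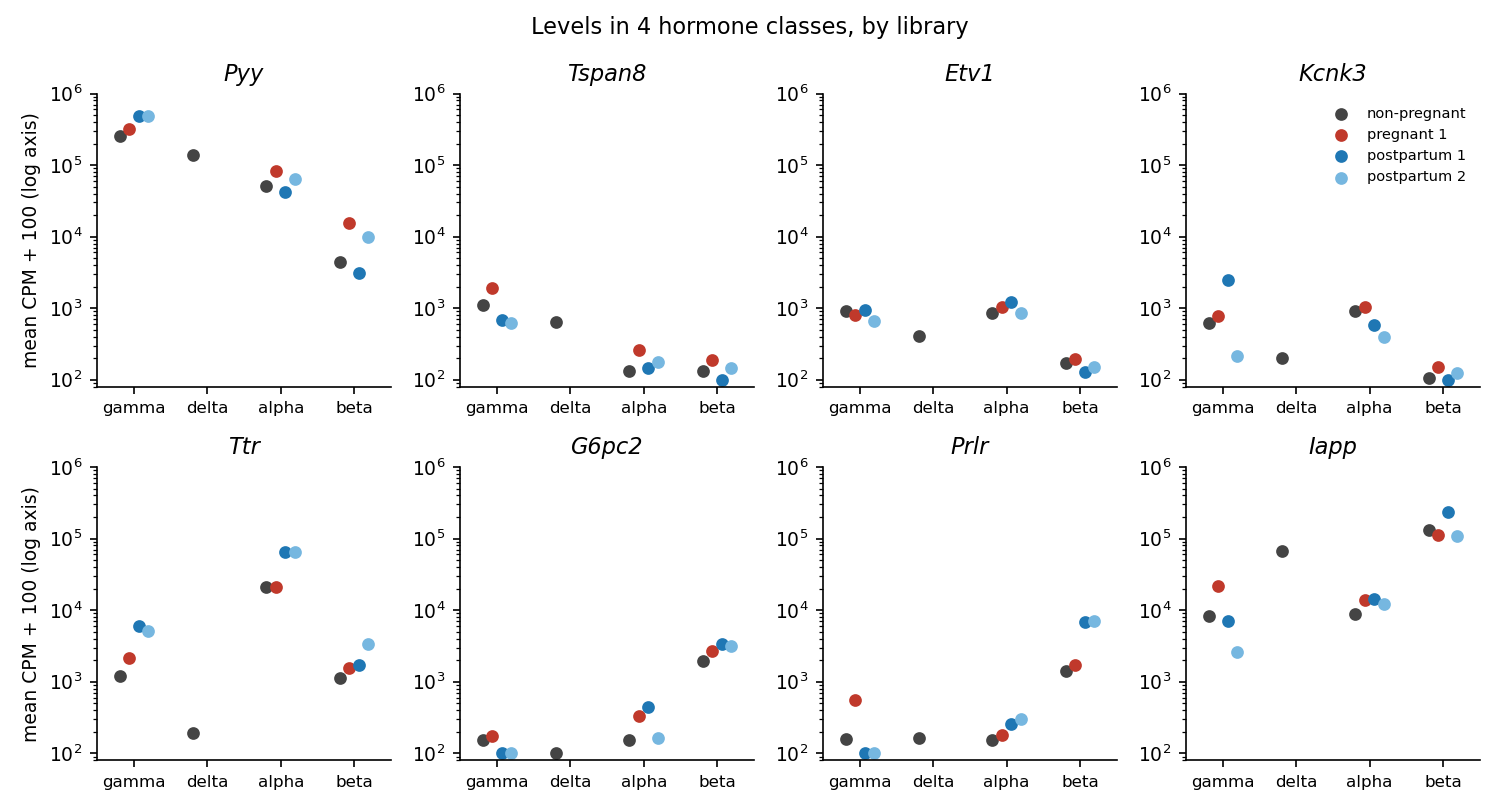
Mean CPM plus 100, on a log axis, of 8 genes in gamma, delta, alpha and beta cells. Points are libraries, and delta cells are shown for the non-pregnant library alone. Among gamma, alpha and beta cells of a library, Pyy and Tspan8 are highest in gamma cells, Etv1 is at similar levels in gamma and alpha cells, Ttr is lower in gamma than in alpha cells, and G6pc2, Prlr and Iapp are lower in gamma than in beta cells.

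The non-pregnant file alone lists features outside the shared genes. Of 34 such features with 20 or more UMIs in gamma cells, 1 (2.94%) had at least 4 times the level of each other class. This was Nfatc2, a calcium-dependent transcription factor that answers to calcineurin. It had 54 UMIs in gamma cells, or 931 per 1000000 non-hormone UMIs of all features pooled over cells (exact 95% Poisson interval 699 to 1215), against 22.0 in alpha, 48.3 in delta and 69.1 in beta cells. On the same pooled scale, 2 of 432 shared genes (0.463%) passed. Hes1, a Notch target and transcriptional repressor, had 27 UMIs (466, 307 to 677) and was 5.77 times its level in alpha cells, the next class. Nr1d2, a clock repressor, had 33 UMIs (569.0, 391.7 to 799) and was 5.27 times its level in beta cells. The filter asked for UMIs in gamma cells alone, so these counts describe the library and support nothing. Nfatc2 was read in 1 library, with no replicate check. Hes1 had 0 UMIs in gamma cells of pregnant 1, postpartum 1 and postpartum 2, while pregnant 1 alpha cells had 10 (299 CPM). A count of 0 allows 485, 2804 and 670 CPM on pooled UMIs in these 3 libraries. Postpartum 1 and postpartum 2 were therefore too shallow to show whether its excess recurred. In pregnant 1 the bound of 485 CPM lay under 5.77 times the alpha cell level, which is averaged over cells. An excess of that size therefore did not recur there, and a smaller one could not be told. Nr1d2 had 1, 1 and 0 gamma UMIs in the same libraries, too few to compare.

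Neuropeptide Y and the receptors of the family had at most 1 UMI in gamma cells. Npy1r, Npy2r, Npy4r and Npy had 0 UMIs in the 31 non-pregnant gamma cells, and Npy5r had 1. The proliferation genes Mki67 and Top2a and the ghrelin gene Ghrl were at 0 UMIs as well. A count of 0 there allows up to 63.6 per 1000000 at the upper Poisson limit. Gpr119, a lipid receptor, had 6 UMIs (103, 38.0 to 225) against 4 in alpha cells (29.3, 7.99 to 75.1) and 0 in beta and delta cells. The gamma and alpha intervals overlapped, and the 0 in delta cells allows up to 59.4, so an excess was not shown. Another receptor, Ffar1, lay the other way, at 17.2 in gamma, 110 in alpha and 143 in beta cells. Transcripts of the mitochondrial genome took 2.90% of gamma cell UMIs, against 2.69% in alpha, 2.24% in delta and 3.56% in beta cells.

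Between reproductive states, no gene was called in gamma cells by both tests. Non-pregnant and pregnant 1 stood alone in their groups, and the 2 postpartum libraries alone set the spread, with 1 residual degree of freedom. limma called 164 of 2232 genes for pregnant against non-pregnant (7.35%), 116 higher (5.2%) and 48 lower (2.15%). It called 247 for postpartum against non-pregnant (11.1%), 1 higher (0.0448%) and 246 lower (11%), and 349 for postpartum against pregnant (15.6%), 1 higher (0.0448%) and 348 lower (15.6%). Of these calls, 164, 246 and 348 were genes with 0 UMIs in both postpartum libraries, where the spread between them is 0. edgeR called 0 in each comparison, with 9, 41 and 5 genes at an unadjusted p under 0.05. The 3 comparisons share libraries, and the called genes had medians of 6, 10 and 8 UMIs in all gamma cells.

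The largest calls by size show what they rest on. Dvl3, Gopc, Gga3, Rflnb and Elp2 led the genes higher in pregnancy, with 5 UMIs each in pregnant 1 gamma cells, and Synrg, Sp1, Anapc2, Mgp and Bsdc1 followed with 2 to 9. Dvl3, Gopc, Cd2ap, Gatm, Eif1a, Sp1, Tprkb, Pygo2, Ryk and Elp2 led the genes lower after birth, with 3 to 9 UMIs in pregnant 1 and 0 in either postpartum library. On UMIs pooled over cells, a count of 0 in postpartum 1 allows 2804 CPM. That is above the 1212 CPM of Dvl3 in pregnant 1, so the difference was not detectable in that library. In postpartum 2 a count of 0 allows 670 CPM on pooled UMIs. The averages over cells in pregnant 1 were higher, down to 873 CPM for Elp2, the lowest of the 10, but are on another scale. Eif1a and Pygo2, with 3 UMIs each in pregnant 1, stood at 485 CPM on pooled UMIs, under that bound. A drop in postpartum 2 was therefore not shown for each of the 10 genes.

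Rpl5, Rpl19, Rpl23a, Rpl31, Oaz1, Epcam, Hes1, Mdh1, Gpx4 and Atp5c1 led the genes lower in pregnant than in non-pregnant gamma cells, and the first 7 of them, with Rps27a, Ier2 and Psma3, led the genes lower in postpartum cells. Rps27a had 98 UMIs in non-pregnant gamma cells and 0 in pregnant 1, postpartum 1 and postpartum 2. Rpl19 had 59, 0, 0 and 0. In alpha cells of the same libraries Rps27a was at 2892, 273, 586 and 182 CPM and Rpl19 at 1910, 295, 318 and 158 CPM. In beta cells Rps27a was at 1352, 249, 96 and 85 CPM, so the non-pregnant value was highest in all 3 classes. The non-pregnant file was deposited on another scale and feature list, and a difference of state from it cannot be told apart from a difference of file. Hes1 had 27, 0, 0 and 0 UMIs in gamma cells and 11, 10, 1 and 2 in alpha cells.

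Pyy was the 1 gene called higher that had UMIs in every library. Its CPM was 254759 in non-pregnant, 320528 in pregnant 1 and 492001 and 485373 in the postpartum gamma cells, so the postpartum libraries lay above these 2. The log2 difference was 0.94 from non-pregnant (limma adjusted p = 0.0398, edgeR 0.991) and 0.61 from pregnant (limma adjusted p = 0.0245, edgeR 0.996). In edgeR the direction was reversed, at -0.63 and -0.14. With the 1 gamma cell of pregnant 2 included, limma's difference between postpartum and pregnant was also reversed, at -1.50. The cause was not tested. As a share of all UMIs in the cell, the median Pyy share was 10.99%, 10.7%, 15.4% and 12.9% in the same order, and the ranges overlapped. Alpha cells were at 50386, 82902, 41966 and 63047 CPM, with the postpartum values on both sides of the non-pregnant one.

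Among 281 genes with a UMI in every library, limma called 2, 6 and 4 in the 3 comparisons, an alternative chosen after seeing the data. Besides Pyy these were Ubb, a ubiquitin gene, Malat1, Meg3, a noncoding RNA, Zc3h11a, Ptprn2 and, lower after birth than in pregnancy, Iapp. In this fit limma took its spread wholly from the trend over genes (infinite prior degrees of freedom). These calls therefore do not measure the spread between libraries. Ubb was at 259, 7578, 7634 and 7247 CPM in gamma cells, and at 154, 4496, 12393 and 12268 CPM in alpha and 207, 4167, 11297 and 11911 CPM in beta cells. Malat1 was at 1853, 5547, 24793 and 54573 CPM in gamma cells, and at 2256, 7564, 16903 and 23489 CPM in alpha cells. Meg3 stood at 2160 and 1826 CPM before and 15825 and 11513 CPM after birth in gamma cells, and at 1936, 1987, 8066 and 10885 CPM in alpha cells. The postpartum values of Ubb, Malat1 and Meg3 were above the non-pregnant one in gamma and alpha cells alike, and whether gamma cells differed more was not tested.

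**Figure D5:**
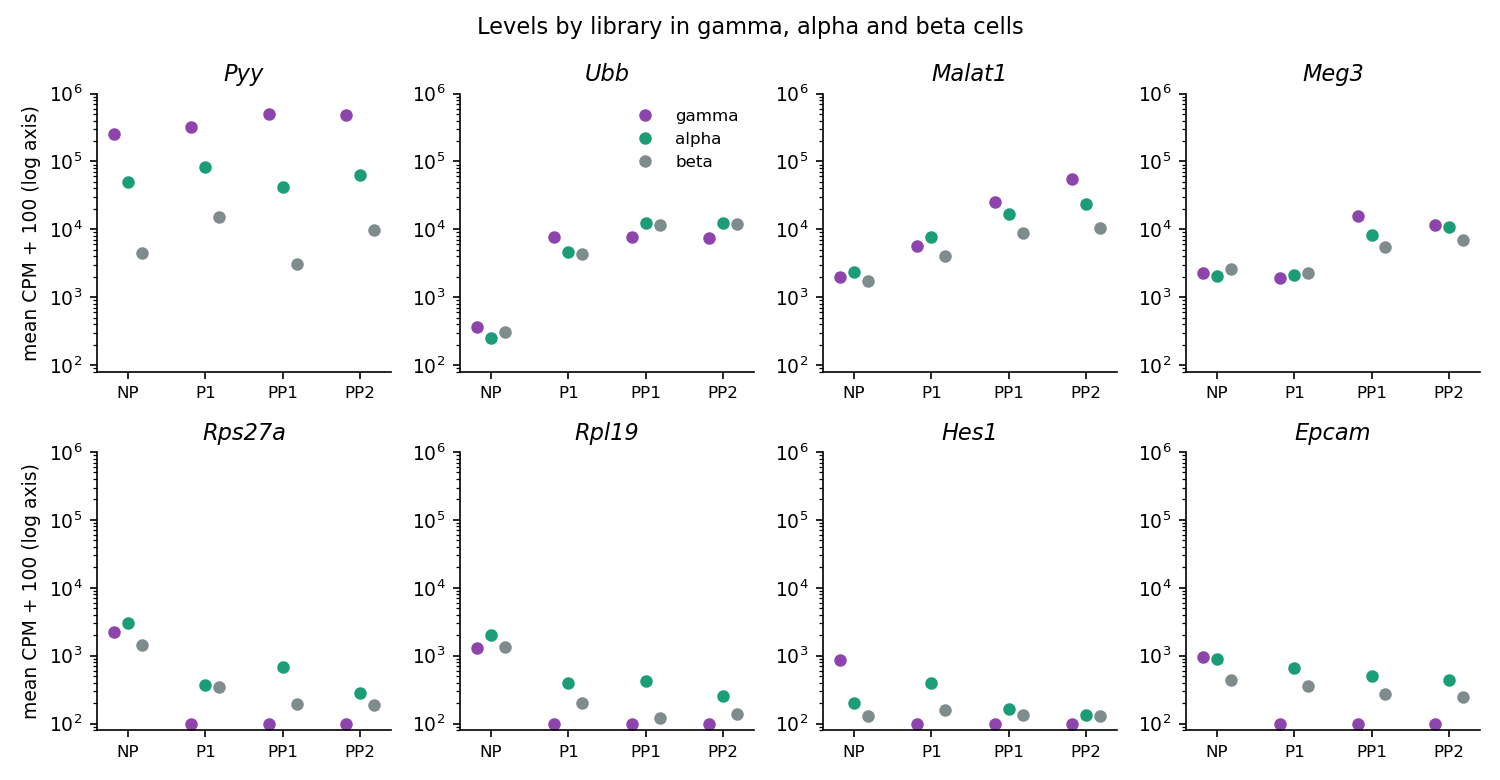
Mean CPM plus 100, on a log axis, of 8 genes by library (NP non-pregnant, P1 pregnant 1, PP1 and PP2 postpartum 1 and 2). Points are means over gamma, alpha and beta cells. Ubb, Malat1 and Meg3 are higher in both postpartum libraries than in the non-pregnant one in all 3 classes, and Rps27a and Rpl19 are highest in the non-pregnant library in all 3.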

How the data were processed

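Single cells of isolated islets were counted by UMI in 5 inDrop libraries. Per the submitters' processing notes, Bowtie 1.1.1, Partek 8.0 and the builds GRCm38 and mm10 were used, with no role stated for them. The authors deposited 4 tables as log2 values, log2(x + 1) of UMIs per 1000000 before some features were dropped, and the non-pregnant table as a normalized signal with 1 column sum for every cell. In each cell the values were whole multiples of 1 step for 100% of values (tolerance 0.1), so UMIs were recovered. Of 6695 listed features, 6626 matched between tables (6543 by symbol, 83 by synonym); names that had become dates were left out.

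Classes were set by hormone share, and Ins1, Ins2, Gcg, Sst, Ppy, Pyy, Iapp and, where listed, Ghrl were left out of the CPM denominator. Ppy, Gcg, Sst, Ins1 and Ins2 were never tested. Libraries with at least 10 cells of both classes entered a fit. Genes whose average reached 100 CPM were fitted with limma 3.58.1 (trend) on log2(CPM + 100); edgeR 4.0.16 (TMM) was the alternative. Pregnant and postpartum labels share numbers, which nothing ties to a shared animal. Only the class fits were run on simulated counts, with changes set in abundant genes, and the outcome is not given here. The state fits were not simulated. Named were the 4 markers, up to 10 called genes per direction with the smallest p and the same direction in every library, up to 10 called genes per direction by size between states, and the most abundant members of each list; genes outside this rule were named after their values were seen. Members and lists were chosen with earlier results of these data known. Some called genes are not reported here. Promoter sequences are from RefSeq.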

Additional observations from a re-analysis of the deposited data

Results flagged for a closer look

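Cells outside the comparisons also carried gamma cell hormones. The single gamma cell of pregnant 2, a library that entered no fit, had 46.8% Pyy beside 32.5% Ppy, on 77 UMIs. Pyy exceeded Ppy in it, as in 8 other gamma cells of the series. Outside the gamma cells, 20 cells had Ppy at 10% or more of their UMIs but more of another hormone. Of these, 10 were in postpartum 2, 4 in pregnant 1, 3 in the non-pregnant library, 2 in postpartum 1 and 1 in pregnant 2. Their Ppy share ran from 10.2% to 22.95%, their insulin share reached 35.2% and their Gcg share 33.5%. Whether these are cells with several hormones or droplets with several cells was not tested.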

How the results depend on the processing

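The class comparisons kept their direction for named genes in nearly all alternatives and often lost their calls. Of 82 values of named genes against alpha cells, 51 kept their side of the threshold, 31 did not and 0 turned direction; against beta cells 188, 63 and 1 of 252, the last being Malat1 at -0.30 with libraries of at least 1 cell. Against alpha cells (6 called), limma called 3 with a pseudocount of 500 CPM, 3 with no filter, 10 with cells of at least 200 UMIs, 1 with libraries of at least 1 cell and 2 at equal depth; leaving out 1 library gave 2 to 10. Against beta cells (34), it called 14 with a pseudocount of 500 CPM, 17 at a Ppy threshold of 20% and 1 at equal depth, edgeR called 52, and leaving out 1 library gave 9 to 41. Iapp missed the threshold at equal depth (limma adjusted p = 0.0826). The cause of these changes was not tested.

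State comparisons rested on the filter and the tool. For pregnant against non-pregnant (164), postpartum against non-pregnant (247) and postpartum against pregnant (349), limma called 3844, 3692 and 1407 with no filter and 0, 0 and 0 with a filter at 500 CPM. It called 377, 579 and 600 with other hormones under 5%, 2, 6 and 4 among genes with a UMI in every library, and 0, 0 and 0 with libraries of at least 1 cell. edgeR called 0, 0 and 0. Pooled UMIs gave 90 for the first, and the second gave 134 without pregnant 1. The third gave 324 without the non-pregnant library, of which 202 were called with it. With the replicate block, which needs the 1 cell of pregnant 2, limma called 0 for postpartum against pregnant (25 at an unadjusted p under 0.05), Pyy was -1.50, Tspan8 0.57 and Folr1 0.12; libraries of at least 1 cell gave the same 3 values, and Tspan8 -1.34 for pregnant against non-pregnant. edgeR turned Pyy to -0.49, -0.63 and -0.14 in the 3 comparisons and Folr1 to 0.48 in the third; Folr1 was 0.12 in the first with other hormones under 5%.

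Gamma cells were 0.552% of pregnant 1 and 0.898% of postpartum 1 at a Ppy threshold of 20%, and 0 of 4 cells of pregnant 2 with at least 200 UMIs. Delta cells could be fitted only with libraries of at least 1 cell, where limma called 0 of 1674 genes (15 at an unadjusted p under 0.05). State comparisons at a Ppy threshold of 20%, at 200 UMIs and without either postpartum library were not run, since no residual degrees of freedom were left. Depth kept pregnant 2 out of the fits, with 6 non-hormone UMIs in its gamma cell, and of the 4 fitted libraries it was lowest in postpartum 1, at 1070.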
